A study of Mus musculus with 10 samples.

Results

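The seminal vesicle secretory protein genes examined here were 8 mouse genes, Svs1, Svs2, Svs3a, Svs3b, Svs4, Svs5, Svs6 and Pate4, of 47069 genes counted in each of 10 prostate orthograft tumours. They were chosen by name because their counts were high in tumours of the line P1 and low in tumours of the lines CP1 and CP2, so the difference between P1 and the CP lines chose them and is given below as values with no test. The P1 cells were derived from the prostate tumour of a mouse aged 14 months and gave 3 tumours. CP1 and CP2 came from prostate tumours of mice aged 6 and 8 months that carried a deletion of Ctnnb1 exon 3, which stabilises beta-catenin, and gave 3 and 4 tumours. The CP donors differed from the P1 donor in more than this deletion, and line, genotype and donor age changed together, so their parts cannot be told apart. In all groups about 5000000 cultured cells were injected into an anterior prostate lobe of a male CD-1 Nude mouse, a host without a normal thymus. The labels name no castration of the hosts or removal of their glands. They do not say whether each library is from an animal of its own, so a p-value covers only the spread between these libraries, which can be technical. CP2 replicate 1 is titled as CP1 but has CP2 in its tissue and source fields, and it was kept in CP2.

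The seminal vesicles are paired glands of the male tract whose epithelium secretes most of the volume of semen. In the mouse their main secreted proteins clot on contact with transglutaminase from the anterior prostate and form the copulatory plug, and most of the genes that encode them need androgen for high expression. The larger clot-forming proteins are encoded by Svs1, Svs2, Svs3a and Svs3b, while Svs4, Svs5 and Svs6 encode small secreted proteins of a fast-evolving family, and Pate4 encodes SVS7, a small cysteine-rich protein that binds sperm. The anterior prostate lobes, where the cells were injected, lie along the seminal vesicles. The counts carry no mark of tumour or host cells, so transcripts of the injected cells and of host gland cannot be told apart, and in bulk tissue neither can a smaller number of cells of a type and less RNA per cell.

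Of the 8 genes, 6 form a cluster on mouse chromosome 2 (GRCm38, positions 164235929 to 164334396, 98.5 kb), in the order Svs2, Svs3b, Svs4, Svs3a, Svs6 and Svs5. Svs1 (ENSMUSG00000039215) lies on chromosome 6, from 48986861 to 48991722, and Pate4 (ENSMUSG00000032099) on chromosome 9, from 35607093 to 35611941. All 8 are protein-coding and passed the filter on low counts. The cluster holds duplicated genes, and the 250 bases before their starts show how close the copies are. For 7 of the 8 genes the RefSeq promoter table of GRCm38.p6 has an entry. Svs5 and Svs6 shared 237 of 246 aligned upstream bases (96.3%), and Svs3a and Svs3b shared 244 of 250 (97.6%). These 4 sequences are shown because the first pair parted in its levels between tumours and the second pair kept together in most of them. Each is the sense strand, 5′ to 3′, ending at the last base before the gene's RefSeq start, and capitals mark bases that differ from the partner. The Svs5 and Svs6 windows are offset by 4 bases, and the unaligned 4 bases at an end of each are in capitals too. Svs5 is chr2:164332515-164332764 (+ strand), Svs6 is chr2:164316501-164316750 (+ strand), Svs3a is chr2:164289017-164289266 (+ strand) and Svs3b is chr2:164256644-164256893 (- strand).
Svs5: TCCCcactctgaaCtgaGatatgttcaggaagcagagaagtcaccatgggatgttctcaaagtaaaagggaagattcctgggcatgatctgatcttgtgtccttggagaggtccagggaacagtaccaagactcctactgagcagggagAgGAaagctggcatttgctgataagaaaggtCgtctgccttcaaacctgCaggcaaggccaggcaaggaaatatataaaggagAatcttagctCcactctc
Svs6: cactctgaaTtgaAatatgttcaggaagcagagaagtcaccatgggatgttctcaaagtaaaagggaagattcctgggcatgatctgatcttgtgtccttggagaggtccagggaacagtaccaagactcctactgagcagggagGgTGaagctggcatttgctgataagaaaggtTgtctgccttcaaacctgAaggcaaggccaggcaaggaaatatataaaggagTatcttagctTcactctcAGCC
Svs3a: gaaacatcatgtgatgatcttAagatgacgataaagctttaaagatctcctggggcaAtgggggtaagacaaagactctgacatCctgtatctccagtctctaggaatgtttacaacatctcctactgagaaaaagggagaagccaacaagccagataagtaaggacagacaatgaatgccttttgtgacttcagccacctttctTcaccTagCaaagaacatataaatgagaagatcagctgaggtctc
Svs3b: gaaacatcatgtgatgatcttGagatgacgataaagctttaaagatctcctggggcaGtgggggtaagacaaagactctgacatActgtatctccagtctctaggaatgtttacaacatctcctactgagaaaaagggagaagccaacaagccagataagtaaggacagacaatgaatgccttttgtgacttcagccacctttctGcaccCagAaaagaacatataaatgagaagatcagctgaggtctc
Short motifs were counted on both strands of these windows, with letters picked after the sequences had been seen. GATAAG occurred in 5 of 7 windows (Svs3a, Svs3b, Svs4, Svs5 and Svs6), against 6.42% of the 32544 windows in the table, and GATAAAG in 5 of 7 (Svs1, Svs2, Svs3a, Svs3b and Svs4), against 2.53%. AGAACA, an arm of the androgen response element, occurred in 5 of 7 against 16%, and TATAAA in 6 of 7 against 12.3%. The full palindrome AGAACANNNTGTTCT was in 0 of 7 windows and in 0.00922% of all windows. GATAAG and GATAAAG share their first 5 letters but cannot match at the same position. The paired genes share most of their upstream bases, so these windows are not independent, and a match is a description of the letters only.

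Libraries held 28050484 to 37180721 counts in P1, 25081535 to 30546426 in CP1 and 18800912 to 20638085 in CP2, and 3 counts in a library corresponded to 0.0923 to 0.154 CPM (counts per 1000000 of a library, with totals scaled by TMM factors). Transcripts of the 8 genes took 14.9% of all counts in P1 replicate 1, 6.85% in replicate 2 and 1.79% in replicate 3. They took 0.00160%, 0.000642% and 0.00273% in CP1 replicates 1 to 3, and 0.150%, 0.00158%, 0.000359% and 0.168% in CP2 replicates 1 to 4. The lowest P1 tumour thus stood 10.6 times above the highest CP tumour. Within lines the spread was also wide, at 8.30 times between P1 replicates 1 and 3 and 470 times between CP2 replicates 4 and 3. The counts behind these shares ran from 5527260 in P1 replicate 1 down to 74 in CP2 replicate 3, whose share has an exact 95% Clopper-Pearson interval of 0.000282% to 0.000450%. Intervals and limits here cover counting error only.

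Among the clot-forming proteins, Svs2 (ENSMUSG00000040132), the semenogelin-like main substrate of prostate transglutaminase, stood at 47850, 46040 and 4242 CPM in P1 replicates 1, 2 and 3. In CP1 it had 5.68, 3.05 and 8.26 CPM, and in CP2 314, 1.37, 0.319 and 351 CPM. Every P1 tumour was above every CP tumour for Svs2, and CP2 replicates 1 and 4 stood apart from the other CP tumours. Svs1, a member of the copper amine oxidase family, stood at 17570, 14.4 and 1049 CPM in P1. The CP1 tumours had 0.953, 0.195 and 1.98 CPM and the CP2 tumours 2.36, 0.343, 0.228 and 78.2 CPM. P1 replicate 2, which had about as much Svs2 as replicate 1, thus had less Svs1 than CP2 replicate 4. Svs3a (ENSMUSG00000017003), a clot protein gene with a near copy in Svs3b, stood at 4204, 3.37 and 514 CPM in the P1 tumours, at 0.247, 0.0325 and 0.324 in CP1, and at 5.44, 0.0490, 0 and 19.5 in CP2. The 0 counts in CP2 replicate 3 allow up to 0.137 CPM. Svs3b (ENSMUSG00000050383) stood at 2522, 1.87 and 298 CPM in the P1 tumours, at 0.141, 0.0325 and 0.243 in CP1, and at 0.411, 0.0490, 0.0912 and 14.2 in CP2. Both genes fell between the P1 tumours as Svs1 did, with P1 replicate 2 far below replicates 1 and 3. The transcripts of Svs3a and Svs3b share 509 of their 1199 and 1200 different 50-base stretches, the only shared ones among the 28 pairs of the 8 genes, so their counts may be split or lost between the copies and their separate levels are uncertain.

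Of the small secreted proteins, Svs4 (ENSMUSG00000016998) stood at 48190, 4361 and 6607 CPM in the P1 tumours, at 3.74, 0.746 and 7.37 in CP1, and at 693, 11.1, 1.78 and 699 in CP2. Svs5 (ENSMUSG00000017004) stood at 34490, 11560 and 3820 CPM in the P1 tumours, at 3.74, 1.30 and 7.33 in CP1, and at 411, 1.77, 0.638 and 363 in CP2. For both genes the P1 tumours lay above all CP tumours, and P1 replicate 2 stood at 0.660 times (Svs4) and 3.03 times (Svs5) the level of replicate 3. Svs6 (ENSMUSG00000017000), whose upstream bases nearly match those of Svs5, stood at 8965, 38.1 and 1042 CPM in the P1 tumours, at 0.60, 0.260 and 0.850 in CP1, and at 11.8, 0.0981, 0.0456 and 35.0 in CP2. Its P1 replicate 2 value lay far below the other P1 tumours and just above CP2 replicate 4. Pate4, the gene of SVS7, stood at 6352, 7669 and 754 CPM in the P1 tumours, at 1.09, 0.746 and 1.34 in CP1, and at 14.0, 0.196, 0.274 and 38.7 in CP2. It was the only member that was higher in P1 replicate 2 than in replicate 1. Pate4 shares 217 of its 1072 exonic bases with Pate2 on the other strand, and Svs1 shares 86 of 2775 with the antisense gene 4930563H07Rik. The overlapping genes had at most 195 and 57 counts in any tumour, and the sources used here do not say if strand was used in counting. Pate2 had 20 counts beside 23 of Pate4 in CP1 replicate 2. In CP2 replicates 2 and 3 it had 7 and 10 beside 4 and 6 of Pate4, so the Pate4 levels of these tumours are uncertain.

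**Figure D1:**
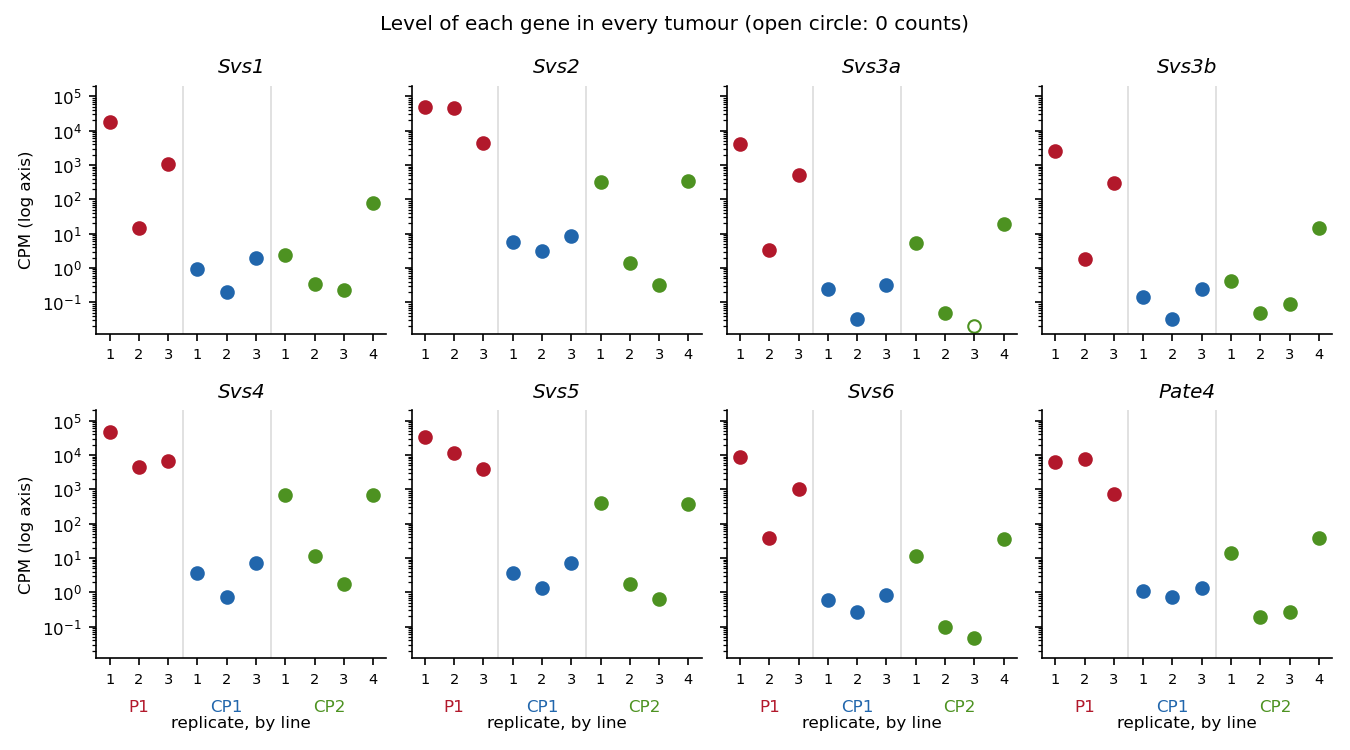
Level of each of the 8 genes in each tumour, in CPM on a log axis, with replicates in order within P1 (red), CP1 (blue) and CP2 (green), and an open circle for 0 counts. Svs1, Svs3a, Svs3b and Svs6 dip in P1 replicate 2 (38.1 CPM or less), where Svs2 stands at 46040 CPM, and CP2 replicates 1 and 4 stand above the other CP tumours for Svs2, Svs4 and Svs5.

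The mean over P1 tumours was 4032 times (Svs5) to 7824 times (Svs3a) that over CP1 tumours, and 8 of 8 genes had every P1 tumour above every CP1 tumour, as had 25.3% of all genes tested. Against CP2 it was 56.2 times (Svs4) to 371 times (Pate4), and 5 of 8 genes had no overlap, as had 29.7% of all genes tested in this direction. Svs1, Svs3a and Svs3b overlapped because P1 replicate 2 lay below CP2 replicate 4. Across all 17644 genes tested, 22.4% were lower in CP1 and 28.4% lower in CP2 than in P1 (edgeR's quasi-likelihood test, Benjamini-Hochberg adjusted p below 0.05), and nothing is read from the members' counts, since this contrast chose them. Single libraries decided these multiples. Without P1 replicate 1 the multiple for Svs1 against CP1 was 510 in place of 5951, and that for Svs4 against CP2 was 15.6. Without CP2 replicate 4 the multiple for Svs1 against CP2 was 6351 in place of 306, and that for Svs3b was 5121 in place of 255. P1 stood above the CP lines in every one of these settings, which is no support, since this contrast chose the genes.

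The P1 tumours differed both in amount and in make-up. P1 replicate 1 exceeded replicate 3 for all 8 genes, by 7.29 times (Svs4) to 16.7 times (Svs1), with a median of 8.53. For 9732 other genes of at least 10 CPM in each P1 tumour the median of this quotient was 0.991, and 95% of them lay between 0.554 and 2.14. In these tumours the 8 genes therefore differed mostly by a shared factor, with Svs1 (16.7) and Svs2 (11.3) at its upper end. Between replicates 1 and 2 there was no such factor. The quotients of replicate 1 to replicate 2 were 0.828 for Pate4, 1.04 for Svs2, 2.98 for Svs5 and 11.1 for Svs4. They were 235 for Svs6, 1218 for Svs1, 1249 for Svs3a and 1349 for Svs3b. Svs1, Svs3a, Svs3b and Svs6 together made up 19.6% and 15.8% of the 8 genes' counts in P1 replicates 1 and 3, but 0.0829% in replicate 2 (exact 95% interval 0.0791% to 0.0867%, 1853 of 2236513 counts). Grouping these 4 genes followed a look at their values, so the contrast is a description.

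**Figure D2:**
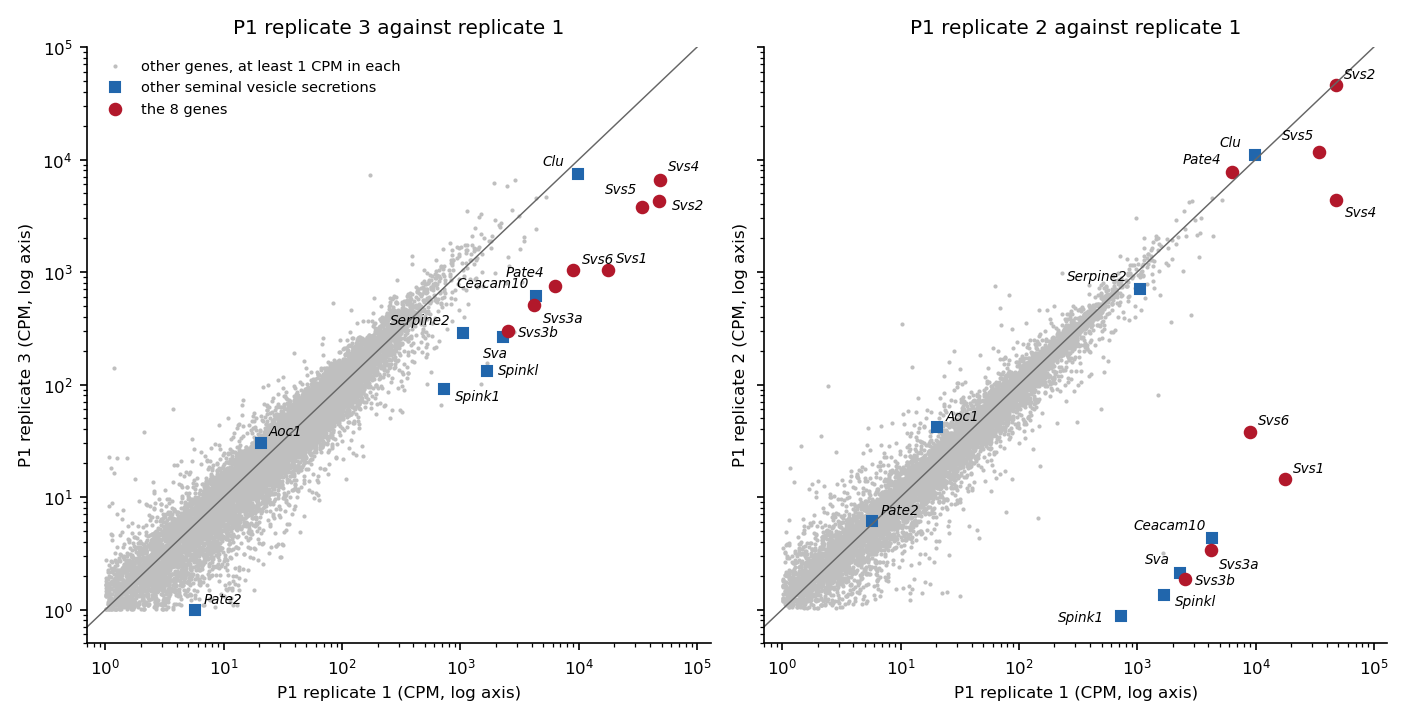
CPM of genes in P1 replicate 3 (left) and replicate 2 (right) against P1 replicate 1, on log axes, with the diagonal of equal values. On the left the 8 genes (red) lie below the diagonal by 7.29 to 16.7 times. On the right Svs2 and Pate4 lie near it, while Svs1, Svs3a, Svs3b and Svs6 lie 235 to 1349 times below it, beside Ceacam10, Sva, Spinkl and Spink1 (blue squares, other seminal vesicle secretions).

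Per kilobase of exon, which allows genes to be compared, the order of levels in P1 replicate 1 was Svs4 (65920 CPM per kb), Svs5 (53380), Svs2 (24110), Svs6 (16760), Svs1 (6331), Pate4 (5925), Svs3a (3503) and Svs3b (2019). P1 replicate 3 kept the order of the first 4 genes and of Svs3b as last, with Pate4 and Svs3a above Svs1. P1 replicate 2 had another order, led by Svs2 (23190 CPM per kb), Svs5 (17900), Pate4 (7154) and Svs4 (5966), with Svs6 next at 71.2 and Svs3b last at 1.50. Over the 3 P1 tumours the means were 26980 ± 33760 for Svs4 and 25730 ± 24690 for Svs5 (SD, n = 3), and Svs4 was above Svs5 in replicates 1 and 3 and below it in replicate 2, so the order of these neighbours did not hold beyond the spread between tumours. Svs3a was above Svs3b in all 3.

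**Figure D3:**
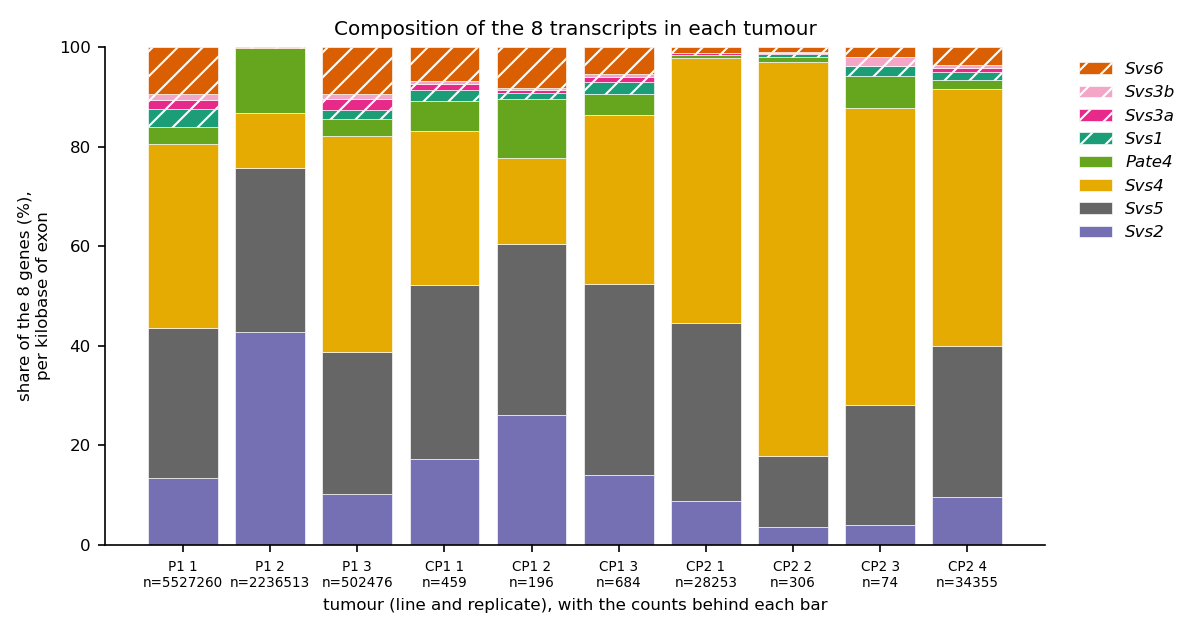
Share of each gene in the 8 genes' level per kilobase of exon in each tumour, with the counts behind each bar, and hatching for Svs1, Svs3a, Svs3b and Svs6. The hatched share is 16.1% and 14.4% in P1 replicates 1 and 3, 0.149% in replicate 2, 9.35% to 10.8% in CP1 and 1.55% to 6.54% in CP2.

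Ratios of counts within a tumour do not depend on depth or scaling. The ratio of Svs5 to Svs6, the pair that shares 96.3% of its aligned upstream bases, was 3.85 and 3.67 in P1 replicates 1 and 3 and 304 in replicate 2. It was 6.24, 5.00 and 8.62 in CP1 and 34.9, 18.0, 14.0 and 10.4 in CP2. The exact 95% interval was 287 to 321 in P1 replicate 2, 30.6 to 40.0 in CP2 replicate 1 and 9.63 to 11.2 in CP2 replicate 4, so these 3 tumours differed beyond counting error from each other and from P1 replicates 1 and 3. The ratio of Svs3a to Svs3b, the other close pair, was 1.67, 1.80 and 1.72 in P1, although Svs3a and Svs3b differed 1249 and 1349 times in level between replicates 1 and 2. It was 1.37 in CP2 replicate 4 (419 to 305 counts) and 13.3 in CP2 replicate 1 (106 to 8 counts, exact 95% interval 6.49 to 31.5). In the other CP tumours it rests on at most 8 counts of each gene. Svs2 to Pate4, a pair from chromosomes 2 and 9, held at 7.53, 6.00 and 5.63 in P1 and at 5.19, 4.09 and 6.18 in CP1, and was 22.5 in CP2 replicate 1 and 9.06 in CP2 replicate 4. Svs2 to Svs1 was 2.72, 3191 and 4.04 in P1, 133 in CP2 replicate 1 and 4.48 in CP2 replicate 4. Svs2 to Svs4 was 0.993, 10.6 and 0.642 in P1, between 1.12 and 4.09 in CP1, and between 0.123 and 0.502 in CP2. Per kilobase Svs4 stood above Svs2 in all 4 CP2 tumours and in CP1 replicates 1 and 3, and below it in CP1 replicate 2.

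**Figure D4:**
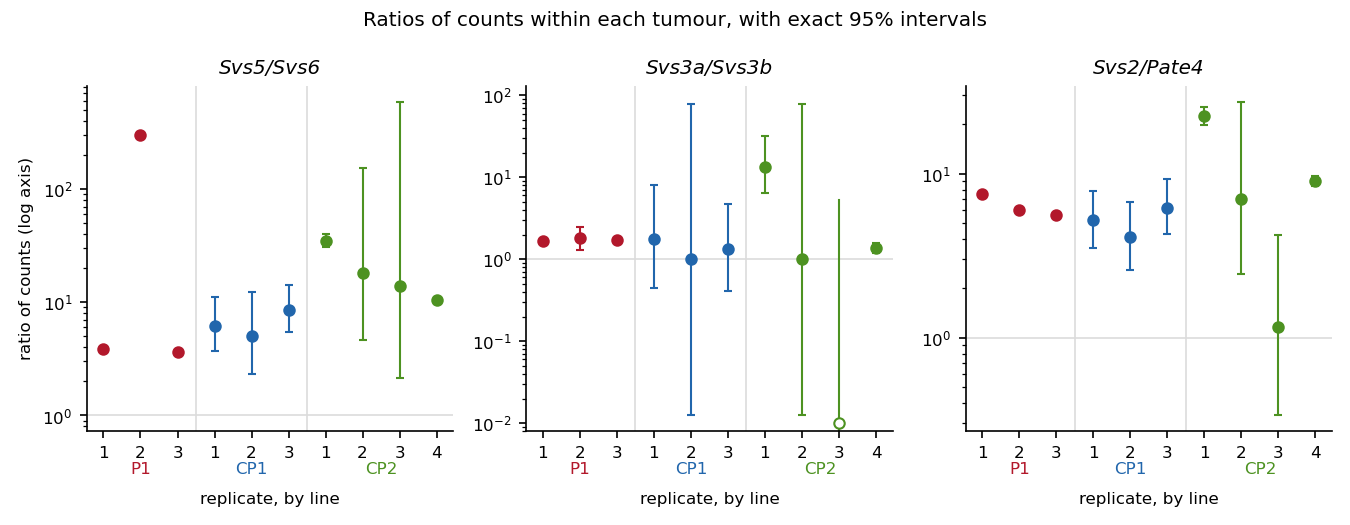
Ratio of counts of 3 gene pairs in each tumour (log axis) with exact 95% intervals for counting error, by line and replicate, and an open circle at the lower edge for a ratio of 0. Svs5/Svs6 stands at 304 in P1 replicate 2 against 3.85 and 3.67 in the other P1 tumours, while Svs3a/Svs3b stays between 1.67 and 1.80 in P1 and reaches 13.3 in CP2 replicate 1.

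On chromosome 2 the 3 clustered genes that dropped in P1 replicate 2 did not form 1 block. Along the cluster Svs2 (46040 CPM), Svs4 (4361) and Svs5 (11560) alternated with Svs3b (1.87), Svs3a (3.37) and Svs6 (38.1), of which only Svs3a and Svs6 are neighbours. Within 250 kb on either side of the cluster, 27 further annotated genes were counted and 13 tested. Of these 13, 4 were lower and 1 higher in CP1 than in P1, and 8 were lower and 2 higher in CP2, against 22.4% and 28.4% of all genes lower and 22.4% and 28.3% higher. The highest of these neighbours by mean CPM were Ywhab, Sdc4, Pigt, Wfdc2, Stk4 and Tomm34. Wfdc2, a secreted whey-acidic-protein gene of epithelia, stood at 276, 450 and 618 CPM in the P1 tumours, at 9.57, 124 and 77.6 in CP1 and at 3.39, 0.441, 0.319 and 0.930 in CP2. It was lowest, among P1 tumours, in replicate 1, where 7 of the 8 genes were highest. The call count in CP1 was 2 lower without CP1 replicate 3, and 0 higher without P1 replicate 3. The neighbour called higher in CP1 was Wfdc12, with 0.649 to 2.71 CPM there, 0.462 CPM or less in P1 and 0 in CP2. Wfdc12 passed the filter on low counts through CP1, so this call is no support. Wfdc12 is also among the 8 called lower in CP2. Ywhab, at 326 to 387 CPM in P1 and 355 to 427 in the CP tumours, was not called in either comparison (adjusted p = 0.637 and 0.0831).

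**Figure D5:**
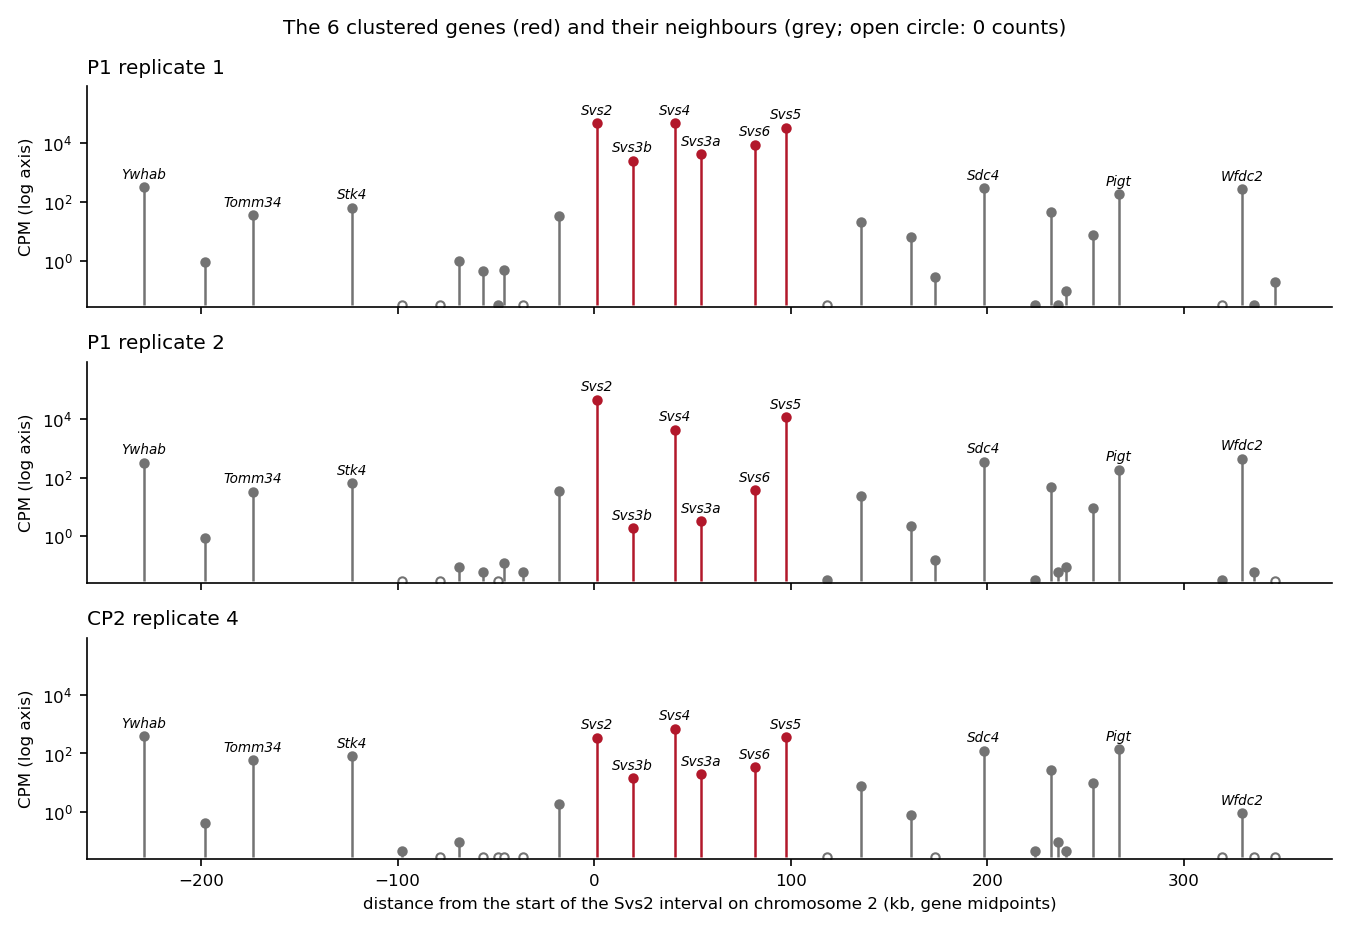
CPM (log axis) of the 6 clustered genes (red) and of 27 neighbours (grey) by the distance of their midpoints from the Svs2 interval start, in P1 replicates 1 and 2 and CP2 replicate 4. In P1 replicate 2 Svs3b, Svs3a and Svs6 stand at 38.1 CPM or less between Svs2, Svs4 and Svs5 at 4361 CPM or more, while Ywhab, Stk4, Sdc4 and Pigt stay near their level in replicate 1.

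Counts of the 8 genes were low but not absent in the CP tumours. CP1 held 459, 196 and 684 counts of them in replicates 1, 2 and 3, and CP2 held 28253, 306, 74 and 34355. Svs5 was first per kilobase in all 3 CP1 tumours and Svs4 in all 4 CP2 tumours, with Svs3a or Svs3b last in each. Svs1, Svs3a, Svs3b and Svs6 together made up 12.0%, 8.16% and 12.3% of the 8 genes' counts in CP1. They made up 1.38%, 3.60%, 10.8% and 9.19% in CP2, with intervals of 1.24% to 1.52% in replicate 1 and 8.89% to 9.50% in replicate 4. CP2 replicates 1 and 4 had similar sums, at 1451 and 1598 CPM, and differed in make-up. Svs2, Svs4 and Svs5 were at 314, 693 and 411 CPM in the first and at 351, 699 and 363 CPM in the second. Pate4 was 14.0 against 38.7 CPM, Svs1 2.36 against 78.2 and Svs3b 0.411 against 14.2.

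CP2 was compared with CP1, a contrast that was not used to choose the genes. Svs4 was called higher in CP2, by 6.48 ± 2.11 on the log2 scale (SE, edgeR adjusted p = 0.0312), although CP2 replicate 3 (1.78 CPM) lay below CP1 replicates 1 and 3 and the ranges overlapped. It was the only call among the 8 genes (12.5%, against 21.3% of all genes called higher). The call was lost without any 1 of the 3 CP1 tumours or CP2 replicates 1 or 4 (adjusted p = 0.0577 to 0.0928). Svs5 and Svs2 were not called (log2 5.56 ± 2.05 and 4.88 ± 2.00, adjusted p = 0.0510 and 0.0737). Pate4 had the smallest difference (3.65 ± 1.58, adjusted p = 0.0870) and Svs1 the sign that turned without CP2 replicate 4 (4.31 to -0.086, adjusted p = 0.184 to 0.979). The fitted difference of Svs3b went from 4.76 to 0.42 without that tumour (adjusted p = 0.204 to 0.941). All 8 ranges overlapped, while 26.7% of all genes had every CP2 tumour above every CP1 tumour. DESeq2 called 7 of the 8, all but Svs1, and 22.4% of all genes higher. Svs3a and Svs3b are among the 7 (adjusted p = 0.0481 and 0.0407) but passed the filter on low counts only through P1, so the count of 7 is no support.

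Other seminal vesicle products formed a list of 12 genes, of which 8 passed the filter. In CP1 and in CP2, 7 of the 8 were lower than in P1, beside 22.4% and 28.4% of all genes, with medians of -7.69 and -5.41 on the log2 scale (-0.010 and 0.0015 for all genes). Sva, Spinkl and Spink1 passed the filter only through P1, and the list was chosen with earlier results known. These counts and medians are therefore a description and no support. In P1 replicate 2 the genes of this list parted, as the 8 genes did. Ceacam10, a secreted immunoglobulin-type protein that binds sperm, stood at 4308, 4.30 and 611 CPM in P1 replicates 1, 2 and 3. Sva, the seminal vesicle autoantigen, stood at 2303, 2.12 and 264 CPM, and Spinkl, a Kazal-type inhibitor-like protein, at 1691, 1.34 and 133 CPM. These genes shared the drop of Svs1, Svs3a, Svs3b and Svs6 in replicate 2. Clu, which encodes the chaperone clusterin, stood at 9818, 10900 and 7358 CPM, and Serpine2, a protease inhibitor, at 1050, 707 and 286 CPM. Neither showed the drop, and Clu varied least of these 5 among the P1 tumours. Aoc1, an amine oxidase gene that was called in neither CP line, stood at 20.5, 41.5 and 30.4 CPM in P1, highest in replicate 2. In CP2 replicates 1 and 4 Ceacam10 was at 17.5 and 42.5 CPM, Sva at 0.0514 and 9.58 and Spinkl at 0.0514 and 5.91, so Sva and Spinkl differed between these tumours as Svs1 and Svs3b did. Between the CP lines Clu was higher in CP2 (log2 2.33 ± 0.45, adjusted p = 0.0025), as were 21.3% of all genes, and Serpine2 lower (-1.39 ± 0.41, adjusted p = 0.0204), as were 21.9%, and the Serpine2 call was lost without CP1 replicate 3 or CP2 replicates 2 or 3.

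A scan of all genes that stood at least 16 times below both other P1 tumours in P1 replicate 2, with at least 10 CPM in those, found 11 genes. They were Svs1, Svs3a, Svs3b, Svs6, Ceacam10, Sva, Spinkl, Spink1, A630095E13Rik, Dnase2b and Gsdma, of which the last 2 were named after their values were seen. The opposite scan found 10 genes, none of them a member, led by Nefh, a neurofilament gene (345.5 CPM in replicate 2, 10.4 and 4.92 in replicates 1 and 3), also named after its values were seen. The scan used the outcome to pick genes and is a description of these 3 libraries.

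Secretions of the prostate lobes moved otherwise. Summed over 8 genes they stood at 2948, 604 and 8998 CPM in P1. The sums were 1577, 32.2 and 8.18 CPM in CP1, and 8.42, 141, 21.1 and 3.12 CPM in CP2. P1 replicate 3, lowest for the summed share of the 8 seminal vesicle genes, was highest here, P1 replicate 2, lowest for 5 of the 8, was lowest among P1, and CP1 replicate 1 stood above P1 replicate 2. Probasin, Pbsn, stood at 388, 119 and 1393 CPM in P1, and 9530053A07Rik at 1931, 359 and 6203. The latter was the largest part of each P1 sum. Tgm4, Azgp1, Defb50 and 9530002B09Rik kept the order of the sum in P1, but Msmb and Sbp did not. Msmb had 0.654 CPM or less in P1, least in replicate 3, but 52.1 CPM in CP1 replicate 1. Sbp had 0 counts in P1 replicates 2 and 3, but 24.7 CPM in CP1 replicate 2. Of 7 tested, 0 were called in CP1 against P1 by edgeR or DESeq2 (0 with an unadjusted p below 0.05), and 6 were lower without CP1 replicate 1. In CP2 5 of 7 were lower (3 without P1 replicate 3 or CP2 replicate 1), beside 28.4% of all genes. Defb50, which is among the 5, passed the filter only through P1. CP2 was lower than CP1 for 2 of 7 genes, beside 21.9% of all genes, and for 0 or 1 without any 1 tumour other than CP1 replicates 2 and 3.

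Partners of the clot formed a list of 20 genes, namely Tgm4, the protease inhibitor gene Eppin, tissue kallikreins, plasminogen activators and their inhibitors. Tgm4, the prostate transglutaminase that cross-links Svs2 and its relatives, stood at 495, 61.1 and 710 CPM in the P1 tumours, at 185, 1.10 and 0.810 in CP1 and at 4.11, 28.0, 7.66 and 1.67 in CP2. Its order over the P1 tumours was that of the summed prostate lobe genes, a list that includes Tgm4 itself, and not that of Svs2. It was lower in CP2 (log2 -5.35 ± 1.75, adjusted p = 0.0246) and not called in CP1 (-2.76 ± 1.74, adjusted p = 0.229). The list's count of lower genes in CP2, 2 with Tgm4 and Serpine2, was 1 without CP2 replicate 1, 3 or 4. Only 4 of the 20 genes passed the filter and 7, all kallikreins, had 0 counts in every tumour, with Klk1 at most 0.841 CPM. Plat, a plasminogen activator, was higher in both CP lines (1.01 ± 0.20 and 1.63 ± 0.19, adjusted p = 0.0023 and 7.407e-05).

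Regulators of gland growth and androgen response were read beside the 8 genes in a list of 14. Of these, 5 were higher and 3 lower in CP1 than in P1 (22.4% and 22.4% of all genes), and 4 higher and 6 lower in CP2 (28.3% and 28.4% of all genes). The count lower in CP1 was 5 without P1 replicate 2 or 3. Fkbp5, which responds to androgen and to glucocorticoids, was higher in both lines (1.41 ± 0.35 and 1.41 ± 0.34, adjusted p = 0.0086 and 0.0053). Tmprss2, a protease gene known as an androgen target in human prostate, was lower in both (-2.05 ± 0.60 and -3.66 ± 0.57, adjusted p = 0.0183 and 4.131e-04). Hoxa10 was higher in CP1 by 0.43 ± 0.08 (adjusted p = 0.0014), and Sox9 lower in CP1 by -0.71 ± 0.18 and in CP2 by -0.81 ± 0.17 (adjusted p = 0.0092 and 0.0023).

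Marker lists of other tissues of the tract were summed beside the 8 genes, and their part in the results was not tested. Epithelial markers (6 genes, among them Epcam, Cdh1 and Krt8) summed to 6825, 8984 and 12980 CPM in P1 replicates 1, 2 and 3 and to between 199.5 and 1122 CPM in the 7 CP tumours. The P1 tumour with most seminal vesicle transcript thus had the lowest sum of these markers among P1. Krt5, a basal cell keratin of the list, went otherwise, at 28.7, 10.5 and 9.88 CPM in P1, and was higher in CP1 than in P1 (log2 3.65 ± 0.90, adjusted p = 0.0080). Krt14, also a basal cell keratin of the list, stood at 228, 164 and 345 CPM in P1 and was lower in CP1 (log2 -4.025 ± 0.41, adjusted p = 4.165e-05). Smooth muscle genes (6 genes) summed to 2853, 1235 and 966 CPM in P1, to 537, 2979 and 4581 CPM in CP1, and to 222, 185, 223 and 446 CPM in CP2. In P1 the order of these sums was that of the 8 genes' share of counts. CP2 replicate 4, highest of the CP tumours for that share, was also highest of CP2 for smooth muscle genes. In CP1, where the 8 genes were low, replicates 2 and 3 stood above every P1 tumour for smooth muscle genes. CP2 replicate 1, with 95.4 times the share of seminal vesicle transcript of replicate 2, was at the level of CP2 replicates 2 and 3 for them. Whether the 8 genes and smooth muscle genes go together was not tested. Uroplakins (5 genes) summed to 48.3, 23.4 and 34.9 CPM in P1 and to 53.0, 1244 and 504 CPM in CP1, and to between 2.14 and 10.8 CPM in CP2. Of the epididymis list (8 genes), Crisp1, a sperm-coating protein, made up the sum of 26.7 CPM in P1 replicate 2 and stood at 0.154 and 0.0729 CPM in replicates 1 and 3. It was also at 10.4 CPM in CP1 replicate 2 and at 6.99 and 30.2 CPM in CP2 replicates 1 and 3, while Lcn5, Lcn8, Lcn9, Adam7 and Spag11b had 0 counts in all 3 P1 tumours. In CP1 replicate 2 Adam7 was at 2.21 CPM and Lcn8 at 0.292 CPM, each at its highest of the 10 tumours. Lcn5, Lcn9 and Spag11b had 0 counts in that tumour.

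The genes most like the 8 across tumours were ranked by Pearson's r of log2 CPM with the mean of the 8, over 10 tumours and 14704 genes with at least 1 CPM on average in P1. The first was 9530003J23Rik (r = 0.989), at 1500, 80.4 and 100 CPM in P1, 0.445 CPM or less in CP1 and 9.67 CPM or less in CP2. Then came Igfbp7, a secreted insulin-like growth factor binding protein (r = 0.957, at 825 to 1351 CPM in P1 and 386 to 610 CPM in the CP tumours), and D730048I06Rik (r = 0.954). Meltf, Wnt9a, Col4a3, Prr5, Spink1, A630095E13Rik and Gabarapl1 made up the rest (r = 0.936 to 0.953). The 8 genes themselves had r of 0.936 (Svs3b) to 0.991 (Svs6) with their own mean. D730048I06Rik lies 0.180 Mb from Pate4 and A630095E13Rik 1.03 Mb from it on chromosome 9. These r are descriptions over points that share the gap between P1 and the CP tumours. Over the 3 P1 tumours alone the r of the 10 genes ran from 0.112 to 1.00, and 462 of the 14704 genes reached at least 0.99. Spink1 and A630095E13Rik, at 728, 0.873 and 91.5 CPM and at 1662, 3.21 and 156 CPM in P1, shared the drop of Svs1 in replicate 2, while 9530003J23Rik had 80.4 CPM there beside 100 CPM in replicate 3.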

How the data were processed

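RNA sequencing counts of 10 tumours were used, 1 file per tumour. The deposited files hold read counts per Ensembl gene as whole numbers, not normalised by the authors. The submitters' processing notes name HTSeq 0.6.0, TopHat2 2.1.0 together with Bowtie2 2.2.6.0, the build GRCm38.p3, and also DESeq2 1.14.1 under R 3.2.3 and FastQC 0.11.4. Parameters, annotation and strand setting are not given in the sources used here. Of 47069 gene IDs, 46488 matched GENCODE M21 (GRCm38), which gave symbols, positions and exon lengths.

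All 10 tumours entered 1 quasi-likelihood fit in edgeR 4.0.16 with a mean per line, TMM factors and filterByExpr (minimum count 10, minimum total 15), which left 17644 genes. Calls were made where the Benjamini-Hochberg adjusted p over all of them was below 0.05, and adjusted p-values come from this fit unless DESeq2 is named. The SE was obtained from the log2 fold change and its F statistic. CPM use TMM-scaled library sizes. Clopper-Pearson intervals are exact at 95%, and the interval of a ratio comes from that of the share of its numerator. The limit of 0 counts is 3 counts. Upstream windows were aligned with Biopython 1.88. The scripts were tested on simulated data.

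The 8 genes and the comparison lists were chosen with earlier results of these data known. Besides the 8, the rule named the 10 genes most like them, up to 6 highest neighbours on chromosome 2 and up to 5 highest genes per list, or any gene of a list under 10. Alternatives were other size factors, scaling without the 8 genes, no filter, a fit of the lines compared only, a block on title numbers, DESeq2, another prior count and each tumour left out. Some items, part of the genotypes among them, are not reported here.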

Additional observations from a re-analysis of the deposited data

Results flagged for a closer look

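Among the 4 CP2 tumours, 67 values were examined for a tumour far from the others, by the gap to the nearest tumour as a share of the range, and 9 stood out. Chance gives about 1 in 20 only for independent values with a normal distribution. These CPM values are skewed, and some sums hold genes that were also examined singly. The 9 therefore cannot be set against that rate, and they are a description. CP2 replicate 4 stood alone for Svs1 at 78.2 CPM (0.228 to 2.36 in the others), for Svs3b at 14.2 CPM (0.0490 to 0.411), for Sva at 9.58 CPM (0 to 0.0514) and for Spinkl at 5.91 CPM (0 to 0.0514). CP2 replicate 1, with similar Svs2, Svs4 and Svs5, did not share these values. In replicate 4 the summed smooth muscle genes were also high, at 446 CPM (185 to 223), and the summed neighbours of the cluster on chromosome 2 low, at 838 CPM (920 to 934). CP2 replicate 2 stood alone for summed prostate lobe secretions at 141 CPM (3.12 to 21.1), mostly 9530053A07Rik at 94.7 CPM (1.40 to 8.25). CP2 replicate 1 stood alone for Fkbp5 at 312 CPM (122 to 151). Groups of 3 tumours were not examined in this way.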

How the results depend on the processing

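Each comparison was recomputed with RLE size factors, with the 8 genes removed from scaling and totals, with no filter on low counts, with only the lines compared, with DESeq2 and with each of the 10 tumours left out. Titles of P1 and CP2 tumours share the numbers 19 and 21, and the deviations of same-numbered tumours correlated at -0.17 and -0.06. These values show no pairing, but so few tumours cannot exclude one. A replicate block could be fitted for CP2 against P1 only, on these 4 tumours, and called 4610 genes between CP2 and P1, in place of 9999, and with fewer tumours it has less precision by construction. Members called in CP2 against CP1 numbered 1, against 2 with no filter, 7 with DESeq2 and 0 to 4 with a tumour left out. They numbered 0 without any 1 of the CP1 tumours or CP2 replicate 1 or 4, and 4 without CP2 replicate 2 or 3. In the fit of only these 2 lines Svs3a and Svs3b did not pass the filter. The Svs1 difference was -0.086 without CP2 replicate 4 (adjusted p = 0.979), in place of 4.31, and its range with a tumour left out was -0.086 to 5.15. The share of Svs1, Svs3a, Svs3b and Svs6 in P1 replicate 2 was 0.149% per kilobase and 0.0829% of counts. Of the 10 genes most like the members, 0 were among the first 10 on the 3 P1 tumours only, where 462 genes had an r of at least 0.99, so this says nothing about stability. The causes were not tested. The multiples of P1 over a CP line stayed above 1 in all settings, and 23 of 136 moved by more than 1.5 times. The genes were chosen for being higher in P1, so multiples above 1 are no support. Depth limits Svs3a and Svs3b most, with at most 8 counts of each in CP1.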
